A study of Mus musculus with 18 samples.

Results

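Stress-response transcription factor genes were examined for peaks of ATF4 chromatin immunoprecipitation in primary immature mouse neurons. The set holds 7 of 21631 protein-coding genes: Atf4 itself, its relative Atf5, the C/EBP genes Cebpb and Cebpg, the AP-1-related genes Atf3 and Jdp2, and Nupr1. They were chosen by name, and peaks were collected from each gene and 20 kb on either side in mm10 coordinates. E14 embryos were the source of the neurons, which were used after 2 days in vitro. Neurons of 1 group received 10 mM 2-deoxyglucose (2-DG) for 6 h. This sugar analogue inhibits glycolysis and interferes with the glycosylation of proteins in the endoplasmic reticulum. Neurons of the other group were untreated. Each group had 4 peak lists, called here 2-DG lists 1 to 4 and control lists 1 to 4, and every list came from 1 immunoprecipitated sample. The antibody label names an ATF4 antibody for the 2-DG samples and reads none for the control samples, whereas the series design names the antibody for both. An absent antibody in the controls and a lower ATF4 occupancy in untreated neurons therefore cannot be told apart in these lists. The cell type could not be checked against marker genes, since peak lists hold no transcript levels.

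ATF4 is the main transcriptional effector of the integrated stress response. Kinases that sense misfolded protein, amino acid shortage or other stress phosphorylate the initiation factor eIF2, which lowers protein synthesis in general while the Atf4 mRNA is translated more. ATF4 is a basic leucine zipper (bZIP) protein and binds DNA as a dimer, often with a C/EBP protein, at a composite C/EBP-ATF element found near genes of amino acid supply and stress adaptation. Several of its known targets encode further bZIP factors that pair with it or act after it, so that the response is shaped by a small network of such factors.

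The 2-DG lists held 15240, 7369, 6371 and 5856 peaks and the control lists held 3461, 3784, 8202 and 6811. An interval listed with several summits counts as 1 peak and takes the summit of highest fold. The fold of a peak is the authors' fold enrichment of that peak over local background, and its percentile is the percent of peaks in the same list with an equal or lower fold. Lists end at a fold of 3.40 to 3.91 in the 2-DG lists and of 3.54 to 3.74 in the control lists. Folds and percentiles describe peaks within a list and were not tested between lists. The lists carry no read counts, and where a list has no peak, weak signal and no signal cannot be separated.

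Of the 7 genes, 6 had 1 region called in all 4 2-DG lists. Atf4 was the exception, with no peak in any of the 8 lists. For Atf3, Jdp2, Cebpb and Cebpg that region was in none of the control lists, and for Atf5 and Nupr1 it was also in control list 1. Over all protein-coding genes, 2.64% had a region shared by all 4 2-DG lists and absent from the control lists within the same distance, and 4.33% had one shared by all 4 2-DG lists whatever the control lists held. The number of the 7 genes with any peak in the 20 kb window was 6, 6, 6 and 6 in the 2-DG lists and 2, 0, 1 and 1 in the control lists. It averaged 6 ± 0 in 2-DG lists and 1 ± 0.816 in control lists (SD, n = 4 each). The share of all protein-coding genes with a peak in that window was 33.1%, 19.4%, 17.2% and 15.2% in the 2-DG lists and 8.95%, 10.1%, 20.1% and 16.8% in the control lists. With the 3461 top peaks of each list by -log10 q, the difference between the group means was 5 genes, as with the full lists. The main region of Cebpb was then no longer called in all 4 2-DG lists. The share of all protein-coding genes with a peak was not computed for these shortened lists.

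**Figure D1:**
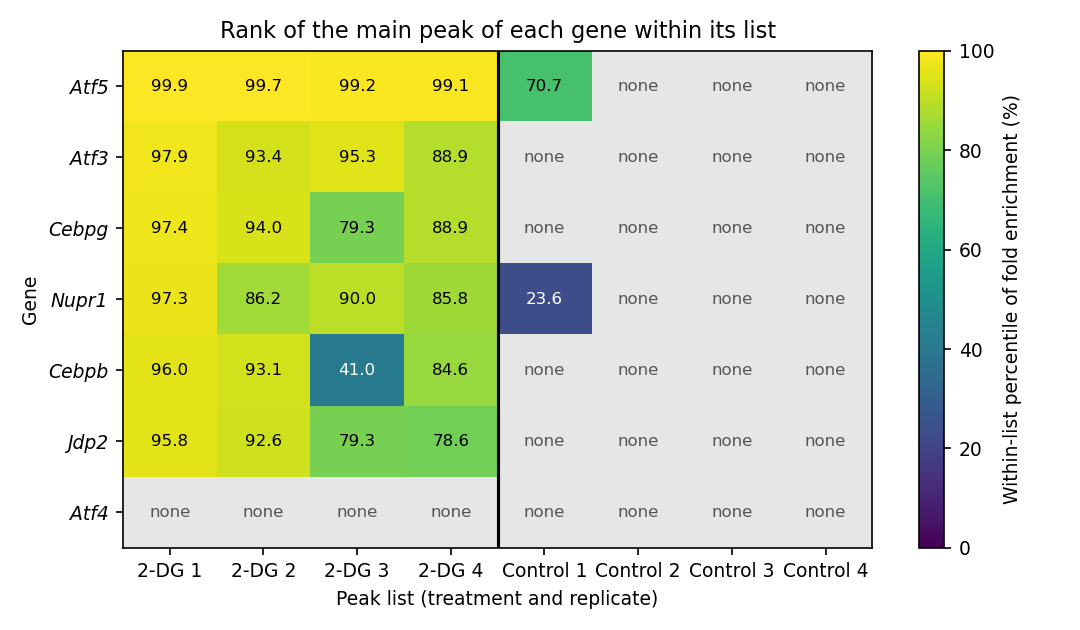
Within-list percentile of fold enrichment (color and printed value, in %) of the main peak of each gene, by list, with 2-DG lists left of the black line and control lists right of it. Atf5 lies between 99.1 and 99.9 in the 2-DG lists, control peaks exist for Atf5 (70.7) and Nupr1 (23.6) in control list 1 alone, and Atf4 has none.

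Atf4, the gene of the immunoprecipitated factor, lies at chr15:80255184-80257545 on the plus strand. None of the 8 lists had a peak within 50 kb of it. The nearest peak was 53.8, 270, 245 and 1168 kb from the gene in the 2-DG lists and 219, 159, 1143 and 79.4 kb in the control lists. Those nearest peaks had folds of 3.56 to 5.31 in the 2-DG lists and of 3.89 to 6.55 in the control lists. A window without a peak in any of the 8 lists was seen for 44.3% of protein-coding genes.

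Atf5 encodes the closest relative of ATF4 and had the highest peak of the set in all 4 2-DG lists. The fold was 80.1, 69.4, 29.8 and 34.2 in the 2-DG lists, at ranks 23, 22, 53 and 53 of their lists. In control list 1 it was 4.73, at rank 1014 of 3461, and the other 3 control lists had no peak there. The Atf5 peak was thus within the top 1 percent of each 2-DG list (percentiles 99.1 to 99.9) and at percentile 70.7 of the control list that held it. The region, chr7:44818373-44819590, lies upstream of Atf5, a minus-strand gene at chr7:44812256-44816658. Its summits fell 2461, 2470, 2460 and 2464 bp before the nearest annotated start in the 2-DG lists, and 2448 bp before it in control list 1. The highest summits of the 4 2-DG lists lay within 10 bp of each other. The same place is inside the gene records of Nup62, a nuclear pore gene, and Il4i1b, so the peak cannot be assigned to 1 gene by position. A second, low peak of fold 3.91 lay 1567 bp upstream of Atf5 in 2-DG list 3, and another of fold 3.40 lay past the end of the gene in 2-DG list 1.

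Cebpb encodes C/EBPβ, a bZIP factor and dimer partner of ATF4, and its peak lay inside the gene near the 3′ end. The fold was 15.2, 12.8, 4.40 and 7.30 in the 2-DG lists (percentiles 96.0, 93.1, 41.0 and 84.6), and no control list had a peak in the 20 kb window. The peak in 2-DG list 3 was the low one, at rank 3762 of 6371 and below the median fold of that list (4.89). The region, chr2:167689831-167690342, sits within the gene at chr2:167688915-167690432 on the plus strand. Summits were 1214, 1238, 1110 and 1236 bp past the annotated start of this gene of 1518 bp. Cebpb is known as an intronless gene. Whether the summit falls in coding sequence or in an untranslated part was not analysed here.

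Cebpg encodes C/EBPγ, a C/EBP factor without an activation domain that also pairs with ATF4. Its fold was 19.8, 13.9, 5.87 and 8.63 in the 2-DG lists (percentiles 97.4, 94.0, 79.3 and 88.9), and the control lists had no peak in the window. As for Cebpb, every 2-DG list and none of the control lists had a peak in the window, which held for 1.53% of all protein-coding genes, and 2-DG list 3 gave the lowest fold. The region, chr7:35055897-35056514, lies inside this minus-strand gene (chr7:35046422-35056566). Summits were 372, 436, 394 and 406 bp past its start. They also fell inside Gm45095, a predicted gene whose nearer end was 711 bp from the highest summit.

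Atf3 encodes a stress-induced bZIP factor that acts as a repressor when it pairs with itself, and its main peak crossed the annotated start. The fold was 22.6, 13.2, 10.8 and 8.63 in the 2-DG lists (percentiles 97.9, 93.4, 95.3 and 88.9), with no control list in the region chr1:191182867-191183603. Atf3 ranked higher within its lists than Jdp2 in all 4 2-DG lists. The gene runs on the minus strand at chr1:191170296-191183333, and the summits were 46, 19, 45 and 43 bp past the start. A weaker region past the end of the gene, at chr1:191165509-191165674, was called in 2-DG lists 1 and 2 with folds of 4.95 and 4.27. It lay 784 bp from an end of Fam71a. The one control peak of the window, in control list 4, had a fold of 4.60 and lay 27692 bp from the Atf3 start. It was past the same end of the gene as the weaker region and overlapped neither of the 2-DG regions.

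Jdp2 encodes Jun dimerization protein 2, a bZIP repressor of AP-1 and the close relative of ATF3. Its fold was 14.8, 12.4, 5.87 and 6.30 in the 2-DG lists (percentiles 95.8, 92.6, 79.3 and 78.6), with no control list in the region chr12:85599170-85599673. The folds were higher in 2-DG lists 1 and 2 than in 2-DG lists 3 and 4, as they were at the main peak of each of the other genes that had one. Jdp2 has 3 annotated starts in the promoter table, on the plus strand, and summits lay 103, 83, 12 and 45 bp before the middle one, at 85599416. They were spread over 91 bp, the second widest spread after the 128 bp of Cebpb. Control list 3 had a peak of fold 4.68 at chr12:85637953-85638107, near the other end of this gene of 41223 bp, where no 2-DG list had one.

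Nupr1 encodes a small chromatin-associated stress protein that is not a bZIP factor and is known as an ATF4 target. Its fold was 19.2, 8.54, 7.34 and 7.63 in the 2-DG lists (percentiles 97.3, 86.2, 90.0 and 85.8). In control list 1 the fold was 3.64 with a -log10 q of 1.39, the lowest values of that list, and the other 3 control lists had no peak in the window. The 2-DG peaks were thus well inside their lists, and the control peak was at the limit of its list (percentile 23.6). The region, chr7:126625407-126625909, crosses the start of this minus-strand gene (chr7:126623246-126625470). Summits lay 105, 93, 117 and 99 bp before the start in the 2-DG lists and 79 bp before it in control list 1.

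**Figure D2:**
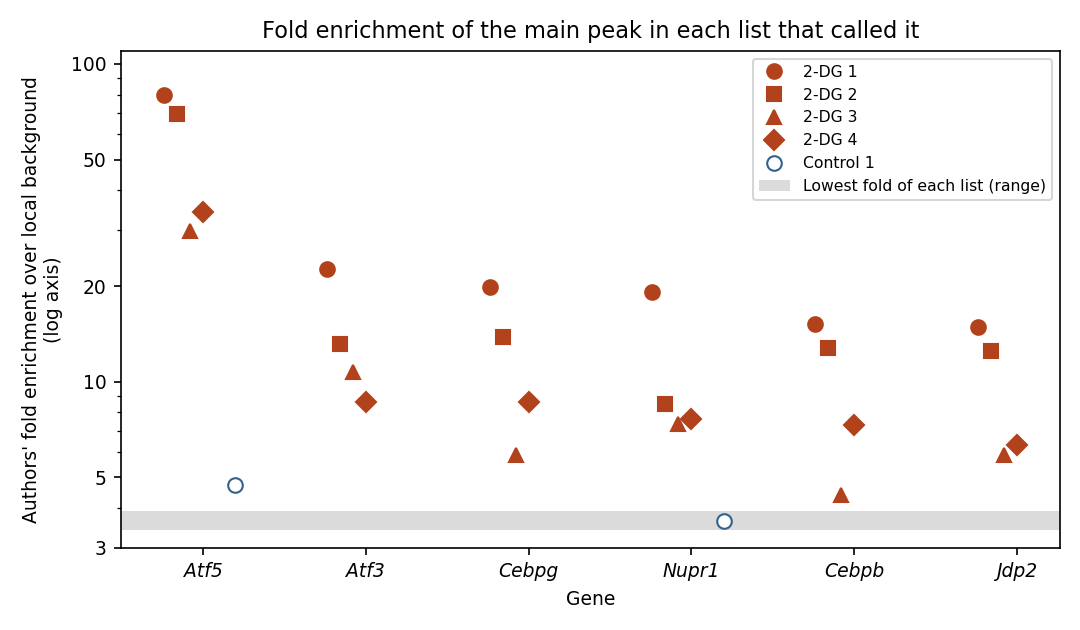
The authors' fold enrichment over local background (log axis) of the main peak of 6 genes in each list that called it, with filled symbols for 2-DG lists and open circles for control list 1. The grey band spans the lowest fold of each of the 8 lists. Atf5 stands highest at 29.8 to 80.1, and the Nupr1 peak of control list 1 sits inside the band.

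Within each 2-DG list the order of the genes by fold was similar at the top and varied below it. Atf5 was first in 4 of 4 lists. Atf3 took position 2 or 3 and Cebpg position 2 to 4. Nupr1 ranged from position 3 to 6, and Cebpb and Jdp2 from 4 to 6. Mean percentiles were 99.5 ± 0.374 for Atf5, 93.9 ± 3.79 for Atf3, 89.9 ± 7.86 for Cebpg, 89.8 ± 5.29 for Nupr1, 86.6 ± 8.89 for Jdp2 and 78.7 ± 25.6 for Cebpb (SD, n = 4 lists each). Only the step from Atf5 to Atf3 exceeded the SD of both neighbors. These SDs are over lists that all genes share, so they do not give the spread of a difference between genes. List by list, Atf3 was above Nupr1 in all 4 lists. Cebpb, the lowest by mean, was above Jdp2 in 2-DG lists 1, 2 and 4 and below it in 2-DG list 3 (percentiles 41.0 against 79.3). The peaks of Atf5 were also the widest, at 514 to 1218 bp, against 156 to 448 bp for Jdp2.

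**Figure D3:**
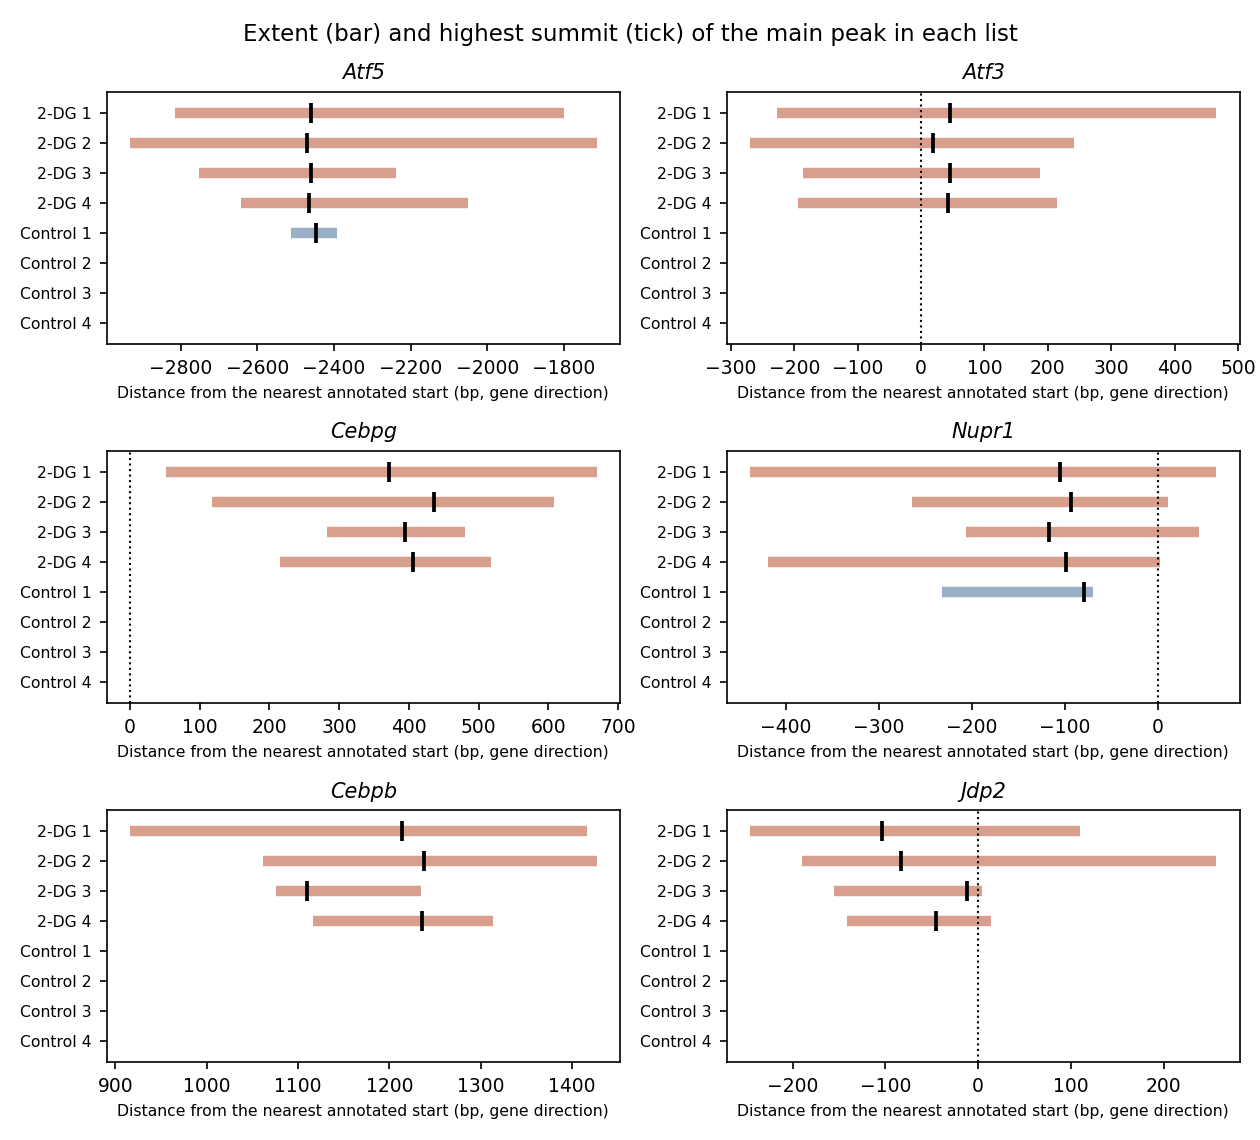
Extent (bar) and highest summit (tick) of the main peak in each list, with 2-DG lists above control lists. Positions are distances in bp from the nearest annotated start in the direction of the gene. A dotted line marks the start at 0, except for Atf5 and Cebpb, whose panels do not reach it. Summits of the 2-DG lists lie within 117 bp of a start for Atf3, Jdp2 and Nupr1, past the start for Cebpg and Cebpb, and about 2460 bp before it for Atf5.

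The main regions of Nupr1, Jdp2 and Atf3 cover promoter windows that the sequence table holds, so their letters could be read. For 3 of the 6 genes the lead summit was within 250 bp of an annotated start. The 250 bases before the start are given for each (RefSeq, GRCm38.p6, gene strand, 5′ to 3′), because each holds the composite C/EBP-ATF core, searched as TGATGNAA on both strands and shown in capitals. They lie at chr7:126625471-126625720 on the minus strand for Nupr1, at chr12:85599166-85599415 on the plus strand for Jdp2 and at chr1:191183334-191183583 on the minus strand for Atf3.
Nupr1: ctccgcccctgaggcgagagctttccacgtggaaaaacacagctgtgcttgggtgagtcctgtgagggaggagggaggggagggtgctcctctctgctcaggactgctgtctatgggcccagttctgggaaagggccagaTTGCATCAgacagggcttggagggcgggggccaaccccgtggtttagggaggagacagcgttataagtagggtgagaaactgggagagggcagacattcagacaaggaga
Jdp2: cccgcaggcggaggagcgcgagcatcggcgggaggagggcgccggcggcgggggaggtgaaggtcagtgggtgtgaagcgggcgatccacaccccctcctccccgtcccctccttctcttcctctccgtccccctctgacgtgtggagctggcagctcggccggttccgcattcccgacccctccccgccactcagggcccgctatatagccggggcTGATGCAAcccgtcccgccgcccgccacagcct
Atf3: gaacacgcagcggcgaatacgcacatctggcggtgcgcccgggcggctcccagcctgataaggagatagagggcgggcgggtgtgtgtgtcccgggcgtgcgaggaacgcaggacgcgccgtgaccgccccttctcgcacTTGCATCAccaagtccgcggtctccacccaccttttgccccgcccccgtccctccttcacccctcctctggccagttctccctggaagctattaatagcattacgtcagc
Turned so that the core reads the same way, and with 11 bases on either side, the 3 cores all read TGATGCAA in different surroundings. The search for TGATGNAA fixed every letter of the core but the N, which was C in each.
Nupr1: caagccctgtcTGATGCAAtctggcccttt
Jdp2: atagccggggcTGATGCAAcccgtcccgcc
Atf3: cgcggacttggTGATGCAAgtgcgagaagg

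The core was found in 3 of the 10 promoter windows of the 7 genes (250 bp before to 50 bp after each annotated start), and these were the 3 windows with a peak in all 4 2-DG lists. The other 7 windows, those of Atf4, Atf5, Cebpb and Cebpg and the remaining 2 of Jdp2, had neither the core nor a peak. Over all 32817 promoter windows, 3.97% held the core. Of the 45 windows with a peak in every 2-DG list and in none of the control lists, 20 held it (44.4%). TGACGTCA, the cAMP response element, and TGANTCA, the AP-1 site, were found in 0 of the 10 windows, against 1.79% and 7.81% of all windows. A match describes letters in a window and is not a measured binding site. The sequence under the Atf5, Cebpb and Cebpg summits was not analysed here.

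The summits of Nupr1 lay close to the core and those of Atf3 did not. For Nupr1, the core lies 110 to 103 bp before the start, and the 2-DG summits were 1.5, 13.5, 10.5 and 7.5 bp from its middle. For Jdp2, the core lies 33 to 26 bp before the middle start, and the summits were 73.5, 53.5, 17.5 and 15.5 bp away. For Atf3, the core lies 110 to 103 bp before the start, the same distance as in Nupr1, and the summits were 152.5, 125.5, 151.5 and 149.5 bp from it, on the side of the gene. In all 3 genes the core was inside the called peak of every 2-DG list. The Atf3 window also held TGACGTNA, a looser form of the cAMP response element that takes in TGACGTCA and was added after that window was seen, 10 to 3 bp before the start. The Atf3 summits were 49, 22, 48 and 46 bp from the nearest base of that match, and 149, 122, 148 and 146 bp from the nearest base of the core in the same lists. Of all windows, 2.93% hold a match to TGACGTNA.

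**Figure D4:**
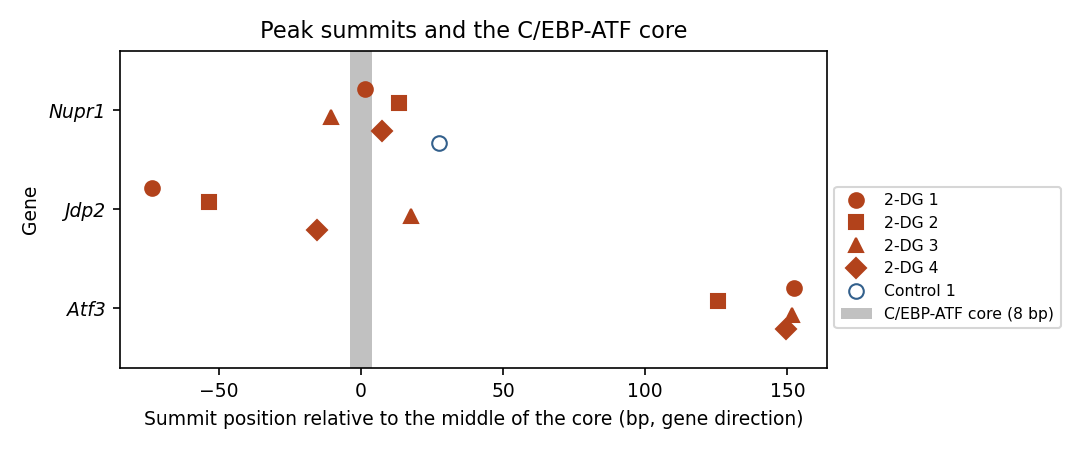
Position of the highest summit relative to the middle of the C/EBP-ATF core (grey, 8 bp) in bp in the direction of the gene, for 2-DG lists 1 to 4 and for control list 1 where it had a peak. Nupr1 summits of the 2-DG lists lie within 13.5 bp of the middle, while Atf3 summits lie 125.5 to 152.5 bp past it.

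No single gene passed a test over the genome, which 4 lists against 4 did not allow here. For Cebpb and Cebpg, with the window marked in 4 of 4 2-DG lists against 0 of 4 control lists, Fisher's exact test gave a two-sided p of 0.0286, the smallest this design can give, and an adjusted p of 1 over 21631 genes. For Atf3, Jdp2, Atf5 and Nupr1, at 4 of 4 and 1 of 4, the exact p was 0.143 and the adjusted p was 1. An unadjusted p under 0.05 was seen for 334 genes (1.54%), and 1.53% of genes had a peak in the window in every 2-DG list and in none of the control lists, while 0.0185% showed the reverse. The number of peaks in the window was 1.5 ± 0.577 in 2-DG lists and 0.25 ± 0.5 in control lists for both Atf3 and Atf5 (SD, n = 4 each, two-sided exact permutation p = 0.0857, adjusted p = 1). Over all genes, 0 passed that permutation test after adjustment and 381 (1.76%) had an unadjusted p under 0.05.

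Control list 1 was the single control list with a peak at a main region, and that list was the shortest, with 3461 peaks. It also held a peak for Ddit3, the gene of the bZIP factor CHOP, at a fold of 12.0, against folds of 47.0, 42.0, 15.7 and 19.2 in the 2-DG lists. Of the integrated stress response genes described below, it also held peaks for Ppp1r15b, Chac1, Psat1 and Asns (folds 17.8, 13.8, 7.27 and 6.91). Others of them, such as Vldlr and Gdf15, had no peak in it. Of all protein-coding genes, 8.95% had a peak in the window in control list 1. Without control list 1, all 6 main regions were called in every 2-DG list and in none of the remaining control lists. This was fixed in advance, since no other control list had a peak at a main region. The share of all genes by that region rule was not computed without this list. By any peak in the window, 4 of the 7 genes met the rule then, against 1.96% of all genes.

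Peaks also marked other members of the bZIP family. Of 46 other mouse bZIP genes, chosen as a family list, 6 (13%) had a region shared by all 4 2-DG lists and absent from the control lists, against 2.64% of all genes. By any peak in the window, 5 (10.9%) were marked in every 2-DG list and in none of the control lists, against 1.53% of all genes. They were Nfil3, which encodes a bZIP repressor, Nfe2l1, a regulator of proteasome genes, Creb5, the unfolded-protein sensor gene Atf6, and Hlf. Nfil3 was the highest of the 5, with folds of 45.2, 27.4, 17.6 and 21.2 in the 2-DG lists, all above those of Atf3 in the same lists. Hlf was the lowest, with folds of 8.35, 8.54, 4.89 and 4.65. Of the 46, 10 had no peak in any of the 8 lists.

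Of 20 genes of the integrated stress response outside the set, from eIF2 kinases to downstream targets, 9 (45%) had a region shared by all 4 2-DG lists and absent from the control lists, against 2.64% of all genes. By any peak in the window, 5 (25%) did, against 1.53% of all genes. They were Vldlr, a lipoprotein receptor gene, the folate enzyme gene Aldh1l2, the secreted factor genes Stc2 and Gdf15, and Ppp1r15a, which encodes the stress-induced eIF2 phosphatase subunit GADD34. Vldlr had folds of 46.1, 37.7, 18.1 and 22.2 in the 2-DG lists, below those of Atf5 in each list. Atf5 was not above all of the 20 genes. Chac1, which also had a peak in control lists 1 and 3, had folds of 142, 128, 69.0 and 66.7 in the 2-DG lists. These were above those of Atf5 in each list. Ppp1r15a had folds of 6.50, 6.05, 3.91 and 4.31, below those of all 6 main regions in each list. Its peaks did not fall in 1 region across the 4 lists.

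Genes with the pattern most like each member were sought by the mean absolute difference in the percentile of the best peak in the window over the 8 lists, with 0 where there was none. For Atf5 the nearest were Mafg, Pycr1 and Sirt7, neighbors on chromosome 11, each with a difference of 0.351 percentage points. For Cebpg they were Gla and Hnrnph2 (0.327 each) and Gm4924 (0.388), and for Cebpb Zc3hav1 and Zc3hav1l (0.749 each) and Adam17 (0.927). For Jdp2 they were Nsg2 (0.596), Apbb2 (2.26) and Ralgapa2 (2.35). For Atf3 they were Ces5a (1.95), Pitpnm2 (2.07) and Aebp2 (2.23), and for Nupr1 Tmem250-ps (2.58), Slc35f1 (3.09) and Ndufa9 (3.27). Equal differences arise where neighboring genes share a peak.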

How the data were processed

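Of 18 samples, 10 immunoprecipitations had peak lists. The 8 inputs were not analysed here. Alignment and peak calling used tools that include BWA, Picard and MACS2 on mm10, with DiffBind also named and no versions given, per the submitters' processing notes. The deposited lists hold, per summit, the authors' fold ratio over local background, its -log10 p-value, its -log10 q-value and a score, which is the -log10 q-value times 10 without its decimals. Peak names carry 1 run and lane, so each list was called on 1 sample. The labels' extraction text is about RNA and describes no chromatin step.

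Groups came from titles that matched the description. In 4 samples, 2 of them with lists, title and description name different treatments, so they were used only in an alternative. The design text speaks of 3 independent replicates, and no label says which lists came from separate cultures. The p-values therefore cover the spread among these lists, which may be technical.

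Gene positions and promoter windows came from RefSeq tables of GRCm38.p6 (mm10), with 1 record per symbol on the autosomes and X. All 7 genes and all genes of 2 lists matched. Overlap meant at least 1 bp. Regions are merged intervals of the 8 lists, 35717 in all. Presence was tested with Fisher's exact test and peak number with an exact permutation test over 70 assignments, with Benjamini-Hochberg adjustment over all genes (Python 3.11.15, scipy 1.17.1). The code was tested on simulated data. The members and lists were chosen with earlier results of these data known. Named genes are the 7 members, list genes marked in every 2-DG list and in none of the control lists, Ddit3, and the 3 genes most like each member. Chac1, Ppp1r15b, Psat1 and Asns were named after the data were seen. The count by single region and the motif TGACGTNA were added after the data were seen. Alternatives were other windows, stricter thresholds, equal list lengths, a summit rule, leaving out each list, the lists with conflicting labels, and a replicate block.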

Additional observations from a re-analysis of the deposited data

Results flagged for a closer look

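By chance alone, about 1 in 20 sets of 4 continuous values has 1 list far from its group. Many of the 34 sets screened here hold small counts, some of them all equal, so that rate does not apply to all of them. In 5 of the 34 sets, 1 list stood far from its group. In 4 of these 5, the other control lists were at 0 and 1 control list had 1 peak in the window, a pattern that always stands apart: Atf3 in control list 4 (1), Jdp2 in control list 3 (1), and Atf5 and Nupr1 in control list 1 (1 each). The Atf3 and Jdp2 peaks lay outside the main regions, and the Atf5 and Nupr1 peaks inside them. The fifth is the Atf3 summit of 2-DG list 2, which was 19 bp past the start, when the other 2-DG summits were 43 to 46 bp past it.

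A list outside both groups, with 2-DG in its title and control in its description, had a peak in the window of 5 of the 7 genes, above the highest control list (2). All 5 lay in the main regions of Atf3, Atf5, Cebpb, Cebpg and Nupr1, with folds of 6.95, 27.1, 5.90, 7.29 and 5.56. It had none for Jdp2 or Atf4. The opposite list, with control in its title and 2-DG in its description, had a peak in the window of 2 genes, Jdp2 and Cebpb, and in 0 main regions. The list with 2-DG in its title held 7847 peaks and the opposite list 4335. The share of all protein-coding genes with a peak in the window was not computed for either list. These counts over the 7 genes therefore have no genome-wide share beside them. Which label is right was not tested.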

How the results depend on the processing

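The count of 4 genes with a main region in every 2-DG list and in none of the control lists was 3 to 6 under all alternatives but 1, and 0 with the conflicting lists added by description. By title it was 3, since that 2-DG list lacked Jdp2. Leaving out single lists gave 4 to 6. The 6 came without control list 1, the only control list with a peak at a main region. A -log10 q-value of at least 2 gave 5 (Nupr1 added), and one of at least 5 gave 3 (Atf3, Atf5 and Nupr1). At a fold of at least 5 it was 5 (Cebpb lost, Atf5 and Nupr1 added), and with 3461 top peaks per list it was 3 (Cebpb lost). The share of all genes by this region rule was computed for the main setting alone, at 2.64%. How far that share moves under the alternatives is therefore not known. The count of 2 genes by any peak of the window was more sensitive: 4 within the gene body (0.892% of all genes by the same rule), 1 with 50 kb (2.0%), 5 at a fold of at least 5 (1.71%), 1 with conflicting lists added by title (1.14%) and 0 by description (0.0185%). It was 2 to 4 without single lists (1.55% to 2.61%). The mean difference of 5 genes per list was 3.4 with conflicting lists added by description. This difference was 4.67 to 5.33 without single lists, and 4.5 to 5.75 under the other alternatives. The matching group difference in the share of all protein-coding genes with a peak was not computed under the alternatives. These values therefore have no genome-wide value beside them, and whether their range is particular to the set was not tested. The number of genes past an adjusted p of 0.05 stayed 0 in every setting, and the lowest adjusted p of a member, with lists added by title, was 0.692 by Fisher's exact test and 0.609 by the exact permutation test of peak number. With consecutive title numbers as a replicate block, the lowest exact permutation p of a member was 0.125. That is the smallest two-sided value that swaps within the blocks can give. Atf5 lost its difference within the gene body (0), since its peak is upstream. For the 6 genes with peaks, 238 of 240 values kept their direction, and Atf4 stayed at 0. Missing read depth limits every absence reported here.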
